A study of Mus musculus with 12 samples.

Results

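The genes described here are 39 targets of the transcription factor ATF4. Most make amino acids and one-carbon units, carry amino acids into the cell, load amino acids onto tRNA, or restrain growth when these supplies run short. Among the others are Xpot for tRNA export, Stc2 for a secreted protein and Vldlr for a lipoprotein receptor. The genes were taken from a list of symbols, and all 39 were matched to Ensembl gene IDs among the 48795 genes of the expression files. Of these, 38 passed the filter on low counts that left 14838 genes for testing, and the remaining gene, Cbs, had at most 2 counts in any library.

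RNA was sequenced from C2C12, a mouse myoblast line, after 5 days of differentiation to myotubes in 2% horse serum, in 12 libraries of 4 groups with 3 libraries each. The vehicle group received 0.02% DMSO for 24 h and the gRc group received 10 µM ginsenoside Rc, a saponin of ginseng, for 24 h. The H2O2 group received vehicle for 18 h and then 0.25 mM hydrogen peroxide for 6 h, and the gRc+H2O2 group received 10 µM gRc followed by the same peroxide, with the gRc step given as 18 h in 1 field of the labels and as 24 h in another. The study compared these groups to ask how oxidative stress alters myotube expression and whether gRc changes that response.

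The labels call the cells myoblasts in a cell-type field and myotubes in the study design. All 5 myotube markers examined (Myh3, Acta1, Ckm, Myog and Mymk) had at least 4846 counts in every library. Their summed level was 9610 to 9719 CPM in vehicle and 6771 to 7318 CPM with H2O2, although none of the 5 passed the test. Each of the 5 overlapped between these groups. The narrow vehicle range sums opposite swings of Myh3 (5507, 5326 and 2773 CPM) and Acta1 (1775, 2293 and 5013 CPM). CPM, the unit of levels here, are expected counts scaled to a common library size with TMM factors, so that libraries can be compared. The 4 cycling markers summed to 171 to 236 CPM in vehicle and 155 to 176 CPM with H2O2, with none called, and of the myoblast markers Pax7 and Myf5 only Pax7 fell (log2 fold change -1.27, SE 0.22, adjusted p = 0.00352). No marker gene was at 0 in any library. In RNA from whole cultures, a change in the cells present and a change in RNA per cell cannot be told apart, and the part of these shifts in the results below was not tested.

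Library totals ran from 19274762 to 31409066 expected counts. In a principal component analysis of all genes, vehicle replicates 1 and 3 and gRc replicate 3 stood apart on the first component, which held 43.1% of the variance, with scores of -68.6, 82.3 and 84.2 against -44.9 to 22.8 for the other libraries. Vehicle replicate 1 was relatively rich in GC-rich transcripts and vehicle replicate 3 and gRc replicate 3 in GC-poor ones, with log2 differences between GC-poor and GC-rich genes of -0.90, 0.41 and 0.51, against -0.35 to 0.42 for the other libraries, so that gRc+H2O2 replicate 2 was as GC-poor as vehicle replicate 3. For ATF4 target genes whose call changes without these 3 libraries, the log2 value of that fit is given beside the gene. No call is given, because only replicate 2 is then left in the vehicle group.

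ATF4 is translated when kinases that sense stress phosphorylate the initiation factor eIF2, a set of reactions known as the integrated stress response. The factor binds, usually with a C/EBP partner, to composite elements close to the start of its targets, and it is best known for raising the enzymes, transporters and synthetases that restore amino acid supply. In muscle cells the same programme is known from mitochondrial stress, in which serine synthesis and folate enzymes of the mitochondrion rise together.

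The composite element is commonly written TGATGNAA, where N is any base, and it was searched on both strands of the 300 bases around each start site in RefSeq promoters of GRCm38.p6 (250 bases before the start and 50 after), so that its reverse complement TTNCATCA was counted too. It was present in 9 of the 29 ATF4 target genes with a promoter entry (31%) and in 1219 of 27025 genes of the promoter table (4.51%). The fully specified form TTGCATCA, which overlaps the first motif, was present in 7 of the 29 (24.1%) and in 279 of the 27025 (1.03%). No promoter entry was used for Aldh1l2, Cth, Slc7a3, Slc7a5, Slc1a5, Cars, Lars, Nars, Wars and Eif4ebp1. Because the list holds genes known as ATF4 targets, these shares are a description and not a test. Windows of 30 bases around 1 match in each of the 9 genes are shown. They are written 5′ to 3′ along the gene, with the match in capitals. The 3 windows of amino acid enzymes and transporters lie at chr6:7693214-7693243 (Asns, minus strand), chr11:120643833-120643862 (Pycr1, minus strand) and chr11:20332699-20332728 (Slc1a4, minus strand). Those of the synthetases lie at chr8:111033840-111033869 (Aars, plus strand), chr6:55037960-55037989 (Gars, plus strand), chr13:49682126-49682155 (Iars, plus strand), chr15:11399655-11399684 (Tars, minus strand) and chr4:129189895-129189924 (Yars, plus strand), and that of Vldlr lies at chr19:27216809-27216838 on the plus strand.
Asns: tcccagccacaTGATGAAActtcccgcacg
Pycr1: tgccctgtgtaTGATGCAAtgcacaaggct
Slc1a4: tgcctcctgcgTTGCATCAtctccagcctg
Aars: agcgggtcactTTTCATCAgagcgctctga
Gars: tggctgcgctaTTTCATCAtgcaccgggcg
Iars: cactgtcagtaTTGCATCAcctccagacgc
Tars: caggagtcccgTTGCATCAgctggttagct
Yars: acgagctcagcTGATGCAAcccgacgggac
Vldlr: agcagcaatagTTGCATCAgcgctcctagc

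The printed match began 200 bases before the start site in Vldlr, 103 in Pycr1, 30 in Gars, 23 in Asns, 15 in Tars and 4 in Slc1a4, and at positions 4, 8 and 10 after it in Yars, Iars and Aars. Aars also has a TTGCATCA match that begins 112 bases before the start site and is not printed. A match describes letters in a window and is not a measured binding site. With H2O2, 8 of the 9 genes with the motif rose, where 7.81% of all genes tested rose. Their median log2 fold change was 1.06, with a range of 0.58 to 2.30. Of the 19 tested genes with a promoter entry and no match, 15 rose, with a median of 1.17 and a range of 0.04 to 2.59. The exception among the genes with the motif was Yars. These counts depend on the fit. With only the vehicle and H2O2 libraries in it, Asns, Pycr1, Aars, Gars and Iars lost their calls among the genes with the motif. Among those without a match, Psat1, Mthfd1l, Gpt2, Eprs and Ddit4 lost theirs.

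The first comparison asked which of the genes responded to H2O2 in cells not given gRc. With H2O2, 32 of the 38 genes tested rose and none fell, where 7.81% of all genes tested rose and 7.84% fell (edgeR quasi-likelihood test, adjusted p under 0.05). The median log2 fold change was 1.13, or slightly over 2-fold, against -0.06 over all 14838 genes, and the 38 values ran from 0.04 (Mars) to 3.34 (Cth). The rise was at least 2-fold in 24 genes. When only the vehicle and H2O2 libraries entered the fit, 18 of the 38 passed. That fit lost the calls of Psat1, Mthfd1l, Asns, Pycr1, Gpt2, Slc7a3, Slc1a5, Aars, Eprs, Gars, Iars, Nars, Wars and Ddit4. The share of 7.81% belongs to the fit of all 12 libraries and not to this smaller fit. In 33 of the 38 every H2O2 library lay above every vehicle library, compared with 15.9% of all genes tested. In 31 of the 38 all 6 libraries with H2O2, gRc-treated or not, lay above all 6 libraries without it, compared with 10.4% of all genes. The summed level of the genes was 4440 to 6240 CPM in vehicle, 4478 to 5652 in gRc, 10350 to 11620 in H2O2 and 9994 to 10770 in gRc+H2O2.

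**Figure D1:**
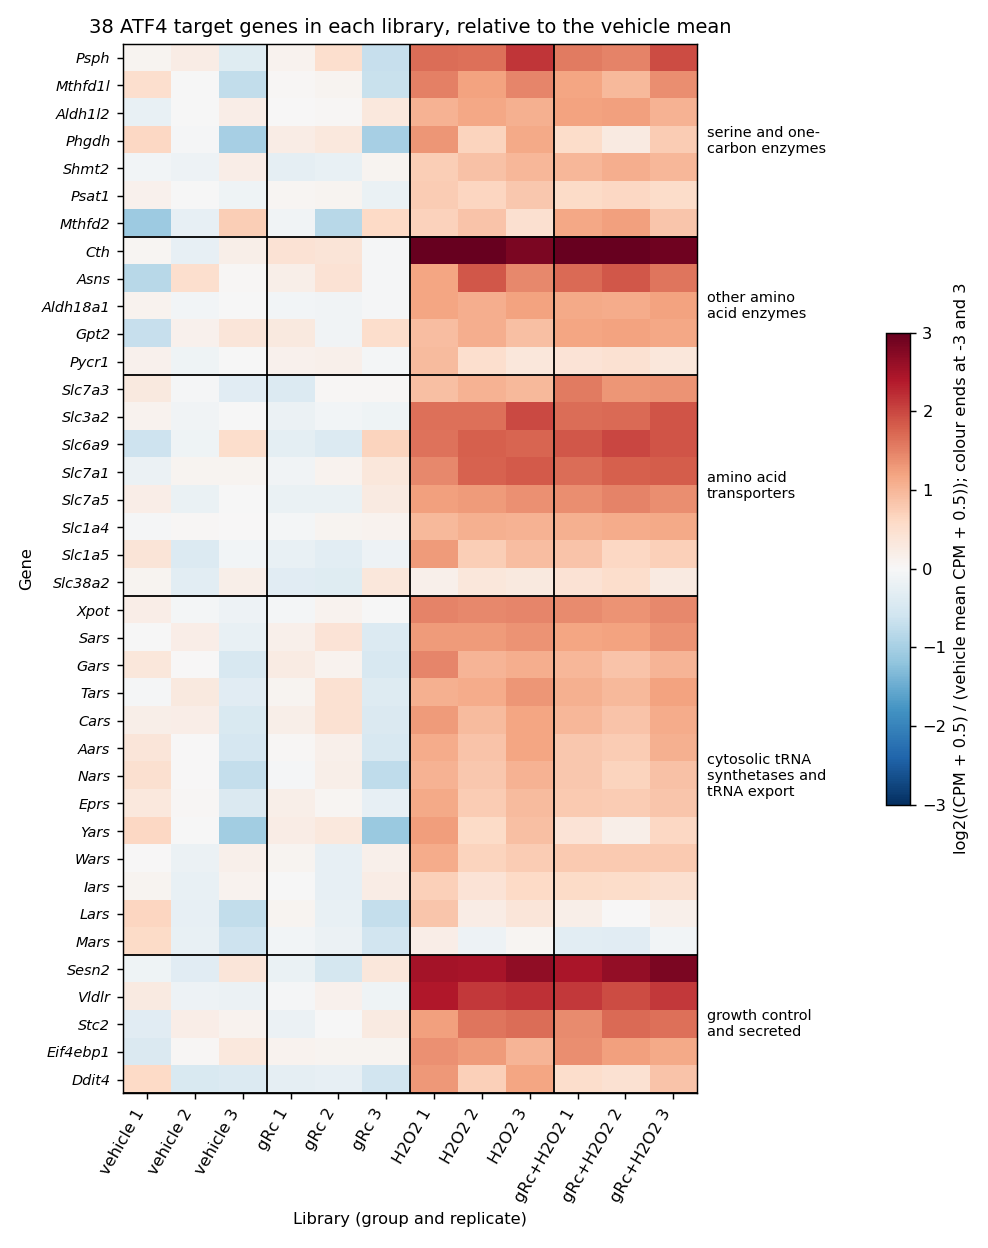
Level of the 38 ATF4 target genes tested (rows, by role and then by fold change) in each of the 12 libraries (columns), as the log2 ratio of CPM + 0.5 to the vehicle mean + 0.5. Red is above and blue below the vehicle mean. In 31 genes all 6 H2O2-treated libraries are higher than all 6 others. Mars and Slc38a2 differ least between H2O2 and vehicle (log2 0.04 and 0.27), and Slc38a2 differs by 0.51 between gRc+H2O2 and gRc.

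The factor itself rose as well. Atf4 (ENSMUSG00000042406, chr15:80255184-80257541, plus strand of GRCm38) was at 225, 463 and 444 CPM in vehicle, 442, 419 and 398 in gRc, 959.7, 1140 and 993 in H2O2 and 1104, 1198 and 1131 in gRc+H2O2. Every library with H2O2 lay above every library without it, and vehicle replicate 1 was the lowest. The rise was 2.73-fold (log2 1.45, SE 0.24, adjusted p = 0.00278), measured on a messenger whose protein is known to be set mainly by translation.

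Of the 7 enzymes of serine synthesis and one-carbon metabolism, 5 rose and none fell, with a median log2 fold change of 1.07. Serine is made from a glycolytic intermediate by PHGDH, PSAT1 and PSPH, and SHMT2, MTHFD2, MTHFD1L and ALDH1L2 pass its carbon through the mitochondrial folate pathway. Aldh1l2, which oxidises formyl folate in the mitochondrion, had the smallest p (ENSMUSG00000020256, chr10:83487450-83534140, minus strand). Its level was 46.8, 54.6 and 63.5 CPM in vehicle, 55.6, 56.5 and 68.5 in gRc, 113.5, 123.7 and 115.4 in H2O2 and 127, 129.6 and 114.5 in gRc+H2O2. All libraries with H2O2 were above all those without, and the rise was 2.14-fold (log2 1.10, SE 0.14, adjusted p = 0.000799). Psph, the last step of serine synthesis, was at 30.6, 34.1 and 22.3 CPM in vehicle, 31.2, 41.3 and 17.7 in gRc, 93.6, 92.4 and 129.3 in H2O2 and 86.0, 81.8 and 114.9 in gRc+H2O2. It rose 3.62-fold (log2 1.86, SE 0.30, adjusted p = 0.00243), the largest change of these enzymes, and the groups with and without H2O2 did not overlap.

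Shmt2, which splits serine into glycine and a one-carbon unit, was at 119, 113 and 145 CPM in vehicle, 105, 107 and 133 in gRc, 209, 233 and 249.8 in H2O2 and 251, 267 and 249.5 in gRc+H2O2. The groups with and without H2O2 stood apart, and the rise was 1.83-fold (log2 0.88, SE 0.15, adjusted p = 0.00333). Psat1, the aminotransferase of the pathway, was at 266, 244 and 223 CPM in vehicle, 254, 258 and 211 in gRc, 418, 379.6 and 425 in H2O2 and 364, 373 and 359 in gRc+H2O2. It rose 1.67-fold (log2 0.74, SE 0.13, adjusted p = 0.00431), without overlap, but the call was lost when the effective length of the gene in each library was taken into account (log2 0.78, adjusted p = 0.363), and its TPM varied widely among vehicle libraries (405 ± 257, SD, n = 3). Mthfd1l rose 2.68-fold (log2 1.42, SE 0.30, adjusted p = 0.00888).

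The 2 enzymes of this group that did not pass were Phgdh and Mthfd2, and both varied strongly among the untreated libraries. Phgdh, the entry step of serine synthesis, ranged from 129 to 391 CPM in vehicle and from 406 to 642 CPM with H2O2, so that every H2O2 library lay above every vehicle library, and the log2 difference was 1.07 with a 95% interval of 0.17 to 1.97 (adjusted p = 0.106). Mthfd2 ranged from 27.8 to 100.3 CPM in vehicle and from 83.5 to 108 CPM with H2O2, with overlap and a log2 difference of 0.69 (adjusted p = 0.319). Without the 3 libraries that stood apart, the log2 difference was 1.10 for Phgdh and 0.92 for Mthfd2 in cells not given gRc. In gRc-treated cells it was 1.5 for Mthfd2.

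All 5 measured enzymes of the other amino acid pathways rose, with a median log2 fold change of 1.17. Cth, or cystathionine gamma-lyase, which releases cysteine in the last step of transsulfuration, changed most of the 38 genes (ENSMUSG00000028179, chr3:157894248-157925077, minus strand). It was at 1.44, 1.07 and 1.61 CPM in vehicle, 2.05, 1.95 and 1.32 in gRc, 14.7, 14.4 and 12.7 in H2O2 and 15.1, 17.4 and 13.6 in gRc+H2O2. The gap between the highest library without H2O2 and the lowest with it was wide, and the rise was 10.1-fold (log2 3.34, SE 0.23, adjusted p = 1.52e-05). Per unit of transcript length it remained low, at 12.1 ± 1.17 TPM (SD, n = 3) with H2O2 against 1.29 ± 0.31 TPM in vehicle. Cbs, the step before it in the same pathway, had no count in 4 libraries and at most 2 in the others, too few for a comparison.

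Aldh18a1, which starts proline and ornithine synthesis from glutamate, was among the most evenly measured, at 78.1, 68.1 and 71.4 CPM in vehicle, 68.6, 67.4 and 70.7 in gRc, 164.7, 155.9 and 167.9 in H2O2 and 160.6, 158.7 and 167.5 in gRc+H2O2. Both pairs of groups stood far apart relative to their spread, and the rise was 2.25-fold (log2 1.17, SE 0.11, adjusted p = 0.00012). Asns, or asparagine synthetase, whose promoter window is the first one printed, was at 61.9, 156.8 and 114.6 CPM in vehicle, 124.8, 151 and 109 in gRc, 254, 404 and 304 in H2O2 and 364, 404 and 340.4 in gRc+H2O2. It rose 2.89-fold (log2 1.53, SE 0.30, adjusted p = 0.00678) without overlap, although vehicle replicate 1 was well below the other vehicle libraries. Gpt2, the mitochondrial alanine aminotransferase, was at 37.8, 67.4 and 78.2 CPM in vehicle, 74.5, 56.9 and 87.7 in gRc, 116, 131 and 115 in H2O2 and 139, 142 and 137 in gRc+H2O2. It rose 1.97-fold (log2 0.98, SE 0.24, adjusted p = 0.0191) without overlap, and it lost its call when H2O2 replicate 2 or 3 was left out. Pycr1, the last step of proline synthesis, rose 1.57-fold (log2 0.65, SE 0.17, adjusted p = 0.0257), the smallest rise of this group. Its call was lost under several other settings, among them with only the groups compared (log2 0.63, adjusted p = 0.147). Without the 3 libraries that stood apart its log2 value was 0.76.

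Of the 8 amino acid transporters 7 rose, all at least 2-fold, and the median log2 fold change of the 8 was 1.5. Slc3a2, the heavy chain CD98 that brings several exchangers to the surface (ENSMUSG00000010095, chr19:8706882-8723369, minus strand), was at 202, 173 and 187 CPM in vehicle, 167, 177 and 171 in gRc, 594, 590.2 and 739 in H2O2 and 599.8, 605 and 694 in gRc+H2O2. No library with H2O2 overlapped any without it, and the rise was 3.42-fold (log2 1.77, SE 0.14, adjusted p = 5.96e-05). Its partner Slc7a5, the light chain LAT1 for large neutral amino acids, was at 167, 126.5 and 145 CPM in vehicle, 127.5, 127 and 175.5 in gRc, 345, 357 and 382 in H2O2 and 385, 409 and 385 in gRc+H2O2. It rose 2.47-fold (log2 1.3, SE 0.16, adjusted p = 0.00062) without overlap.

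Slc7a1, the cationic amino acid carrier CAT1, was at 76.7, 91.2 and 91.8 CPM in vehicle, 80.6, 92.5 and 109.3 in gRc, 236, 297 and 309 in H2O2 and 277, 302 and 308 in gRc+H2O2. Its rise was 3.24-fold (log2 1.70, SE 0.16, adjusted p = 0.000139), and no library with H2O2 was near any without it. Slc1a4, the neutral amino acid carrier ASCT1, had the smallest SE of the 38, at 54.1, 56.4 and 55.5 CPM in vehicle, 52.7, 59.0 and 59.9 in gRc, 109.1, 117.3 and 115.3 in H2O2 and 115.9, 120.2 and 121.8 in gRc+H2O2. It rose 2.06-fold (log2 1.04, SE 0.11, adjusted p = 0.000193).

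Among the remaining transporters, the glycine carrier Slc6a9 rose 3.34-fold and the glutamine carrier Slc1a5 rose 2.04-fold. Slc7a3, a second cationic carrier, rose 3.94-fold (log2 1.98, SE 0.49, adjusted p = 0.0199), but rested on 2 to 53 counts per library. Slc38a2, the sodium-coupled carrier SNAT2, was the exception. It was already at 258 to 364 CPM in vehicle and reached 357 to 408.5 CPM with H2O2, with overlap, and its log2 difference of 0.27 had a 95% interval of -0.19 to 0.72 (adjusted p = 0.434). Without the 3 libraries that stood apart its log2 difference was 0.57.

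**Figure D2:**
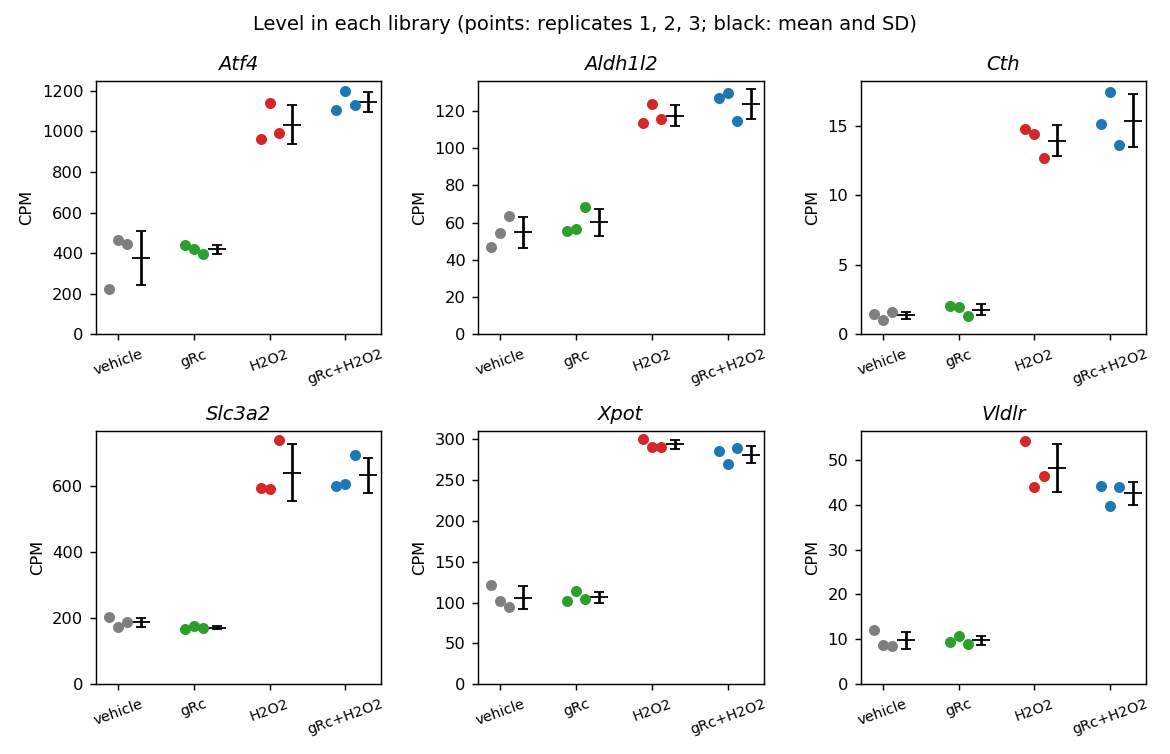
Level in each library (CPM, linear axis from 0) of Atf4 and of the gene with the smallest p in each role group. Coloured points are replicates 1, 2 and 3, and black bars give the group mean and SD (n = 3); in each panel the 6 libraries with H2O2 lie above the 6 without it, and the gRc+H2O2 libraries lie near those of H2O2.

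Cytosolic aminoacyl-tRNA synthetases attach each amino acid to its tRNA, and exportin-t, encoded by Xpot, carries tRNA out of the nucleus. Of these 13 genes 10 rose and none fell, with a median log2 fold change of 0.97, and 6 rose at least 2-fold. Xpot (ENSMUSG00000034667, chr10:121587380-121626332, minus strand) had the smallest p and was at 121, 102 and 94.9 CPM in vehicle, 101, 114 and 104 in gRc, 300.3, 290.3 and 291 in H2O2 and 285, 270.1 and 289 in gRc+H2O2. It rose 2.77-fold (log2 1.47, SE 0.13, adjusted p = 8.79e-05), without overlap. Sars, for serine, was at 277, 321 and 237.5 CPM in vehicle, 308, 369 and 209.5 in gRc, 675, 675 and 709.7 in H2O2 and 637, 642 and 706 in gRc+H2O2. It rose 2.47-fold (log2 1.3, SE 0.20, adjusted p = 0.00203) and with H2O2 was the most abundant of the 39 genes per unit of length (913 ± 52.7 TPM, SD, n = 3).

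Wars, for tryptophan, was at 59.9, 52.5 and 65.7 CPM in vehicle, 63.1, 49.9 and 65.5 in gRc, 129.9, 94.8 and 101 in H2O2 and 102, 102 and 103 in gRc+H2O2. The 6 libraries with H2O2 were all higher than the 6 without, and the rise was 1.83-fold (log2 0.87, SE 0.16, adjusted p = 0.00465). Tars, for threonine, was at 248, 310.5 and 201 CPM in vehicle, 266, 348 and 194 in gRc, 534, 548 and 631 in H2O2 and 531, 495 and 584 in gRc+H2O2. It rose 2.26-fold (log2 1.17, SE 0.22, adjusted p = 0.00593), also without overlap. The synthetases Gars, Eprs, Cars, Aars, Nars and Iars rose by 2.30, 1.95, 2.23, 2.08, 1.97 and 1.5 times, in that order. Nars was the closest to the threshold (adjusted p = 0.0477) and lost its call under 8 other settings, with the GC correction among them (adjusted p = 0.0824). Iars lost its call with no filter, effective lengths, limma on TPM and only the groups compared. Aars lost it under the last 3 of these, and Gars, Eprs and Wars with only the groups compared.

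The 3 synthetases that did not pass were Mars, Lars and Yars. Mars, for methionine, was at 270.3, 155 and 119 CPM in vehicle and 209, 164 and 188 with H2O2, so that its log2 difference was 0.04 with a 95% interval of -0.54 to 0.63. Its direction changed with the processing, as given in the closing section. Lars, for leucine, was at 327.8, 178 and 126.5 CPM in vehicle and 373, 247 and 271 with H2O2 (log2 0.50, adjusted p = 0.337). Yars, for tyrosine, was at 329.5, 213 and 104 CPM in vehicle and 514, 320.4 and 404 with H2O2 (log2 0.94, adjusted p = 0.169). Without the 3 libraries that stood apart its log2 value was 0.95.

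The synthetases shared a pattern among the untreated libraries. In 8 of the 13 genes vehicle replicate 1 was the highest and vehicle replicate 3 the lowest of the vehicle libraries, vehicle replicate 3 was the lowest in 11 and gRc replicate 3 the lowest of its group in 10. Their summed level was 2329 to 4060 CPM in vehicle, 2341 to 3570 in gRc, 5750 to 7007 in H2O2 and 5301 to 6043 in gRc+H2O2. Among all 38 genes the median log2 range over the vehicle libraries was 0.64, close to the 0.70 of all genes tested, and 11 genes ranged over more than 2-fold, both on the log2(CPM + 0.5) scale. After a correction for GC content 31 of the 38 genes rose. Whether that correction removed the shared pattern of the synthetases was not tested.

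All 5 genes of the group named growth control and secreted, which also holds the receptor gene Vldlr, rose at least 2-fold, with a median log2 fold change of 1.57. Vldlr, the very low density lipoprotein receptor (ENSMUSG00000024924, chr19:27216484-27254231, plus strand), was at 12, 8.78 and 8.56 CPM in vehicle, 9.50, 10.8 and 8.93 in gRc, 54.2, 43.9 and 46.3 in H2O2 and 44.1, 39.6 and 44.0 in gRc+H2O2. The rise was 4.93-fold (log2 2.30, SE 0.17, adjusted p = 2.48e-05), and the groups did not overlap. Sesn2, a leucine-binding inhibitor of mTORC1, was at 14.6, 12.6 and 20.9 CPM in vehicle, 13.9, 11 and 20.5 in gRc, 93.1, 91.8 and 104.9 in H2O2 and 89.2, 102 and 116.3 in gRc+H2O2. It rose 6.02-fold (log2 2.59, SE 0.25, adjusted p = 0.000159), second to Cth among the 38.

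Stc2, a secreted glycoprotein, was at 7.65, 11.4 and 10.6 CPM in vehicle, 8.74, 9.75 and 12.1 in gRc, 23.8, 31.3 and 32.8 in H2O2 and 27.4, 33.2 and 32.3 in gRc+H2O2. Its rise was 2.96-fold (log2 1.57, SE 0.20, adjusted p = 0.000713), without overlap. Eif4ebp1, whose product 4E-BP1 holds back cap-dependent translation, was at 96.8, 134 and 163 CPM in vehicle, 141, 139 and 138 in gRc, 341, 319 and 269 in H2O2 and 348, 310.4 and 287.5 in gRc+H2O2. It rose 2.36-fold (log2 1.24, SE 0.19, adjusted p = 0.00181), again without overlap. Ddit4, the mTORC1 inhibitor REDD1, rose 2.15-fold (log2 1.11, SE 0.28, adjusted p = 0.0232), from 18.1 to 38.1 CPM in vehicle to 41.5 to 62.4 CPM, with vehicle replicate 1 well above the other vehicle libraries.

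**Figure D3:**
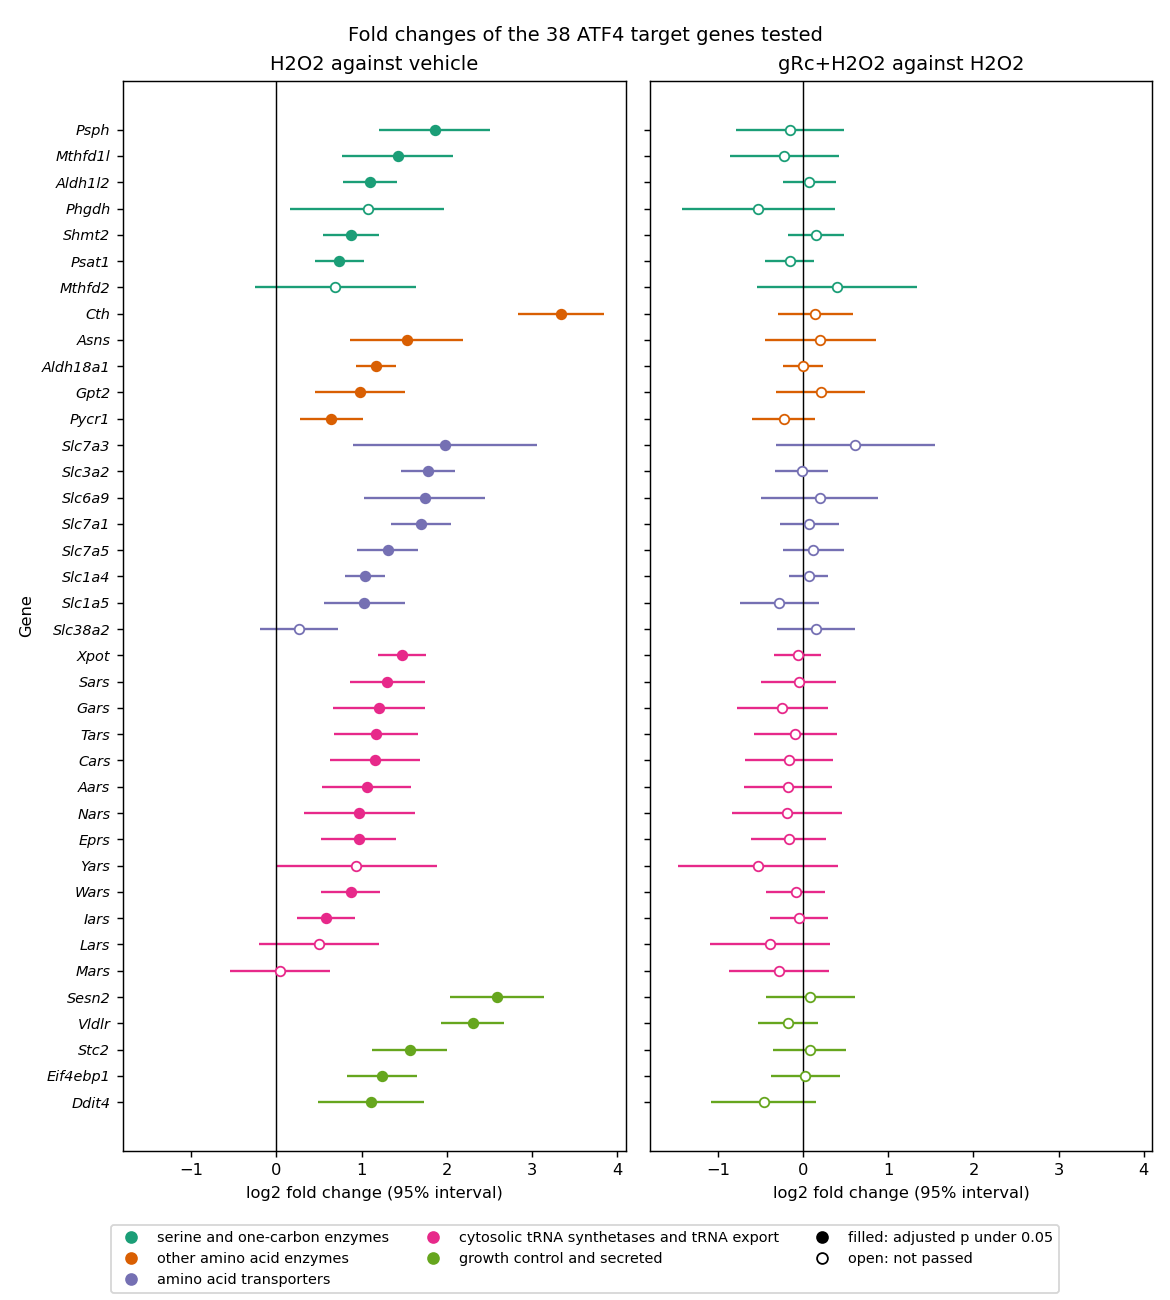
Log2 fold changes of the 38 genes tested, with 95% intervals, for H2O2 against vehicle (left) and gRc+H2O2 against H2O2 (right), coloured by role. Filled points passed at an adjusted p under 0.05; 32 are filled at left, and none at right, where the values run from -0.53 (Yars) to 0.61 (Slc7a3).

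Other genes of the same pathways were read from the same test as a frame for these values. Over all genes tested 7.81% rose and 7.84% fell, so the small counts in the lists after the regulators are not read as results about them. Of 16 regulators of the integrated stress response 10 rose with H2O2 and none fell, with a median log2 fold change of 1.26. The largest values among the 4 with the smallest p were those of Atf3 (log2 3.92, SE 0.20) and Ddit3, the factor CHOP (2.63, SE 0.22), followed by Ppp1r15a, the phosphatase subunit GADD34 (2.35, SE 0.15), and Chac1, which degrades glutathione (2.06, SE 0.19). Of 11 other cytosolic synthetases and scaffold proteins, only Farsb passed (log2 0.45, SE 0.14, adjusted p = 0.0464), with a median of 0.42 for the 11. Of 17 mitochondrial synthetases none rose and 2 fell, with a median of -0.08, and Sars2 was among those that fell (log2 -0.60, SE 0.16). The count that fell was 0 with only the groups compared, or when H2O2 replicate 2 or 3 was left out. The 3 sets of synthetases are shown by these counts and medians, and the difference between them was not itself tested.

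Among 16 other folate and one-carbon genes, the reduced folate carrier Slc19a1 (log2 1.01, SE 0.17) and Mtrr (0.73, SE 0.20) rose, while Gldc, of the glycine cleavage system, fell (log2 -1.36, SE 0.22). The count that rose was 1 with no filter, effective lengths, limma on TPM or only the groups compared. Of 19 other enzymes of amino acid metabolism, Bcat1, the cytosolic branched-chain aminotransferase (log2 2.39, SE 0.25), and Ass1, which makes argininosuccinate (0.83, SE 0.13), rose and none fell. Of 16 other amino acid transporters tested, 2 rose and 4 fell, but 0 rose and 2 fell with only the groups compared. The falls included the glutamate carrier Slc1a3 (log2 -1.96, SE 0.27), the taurine carrier Slc6a6 (-1.07, SE 0.22) and Slc7a7 (-1.13, SE 0.27), and Slc38a7 rose (0.55, SE 0.11). Farsb lost its call in 9 of the 12 fits that each left out 1 library.

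**Figure D4:**
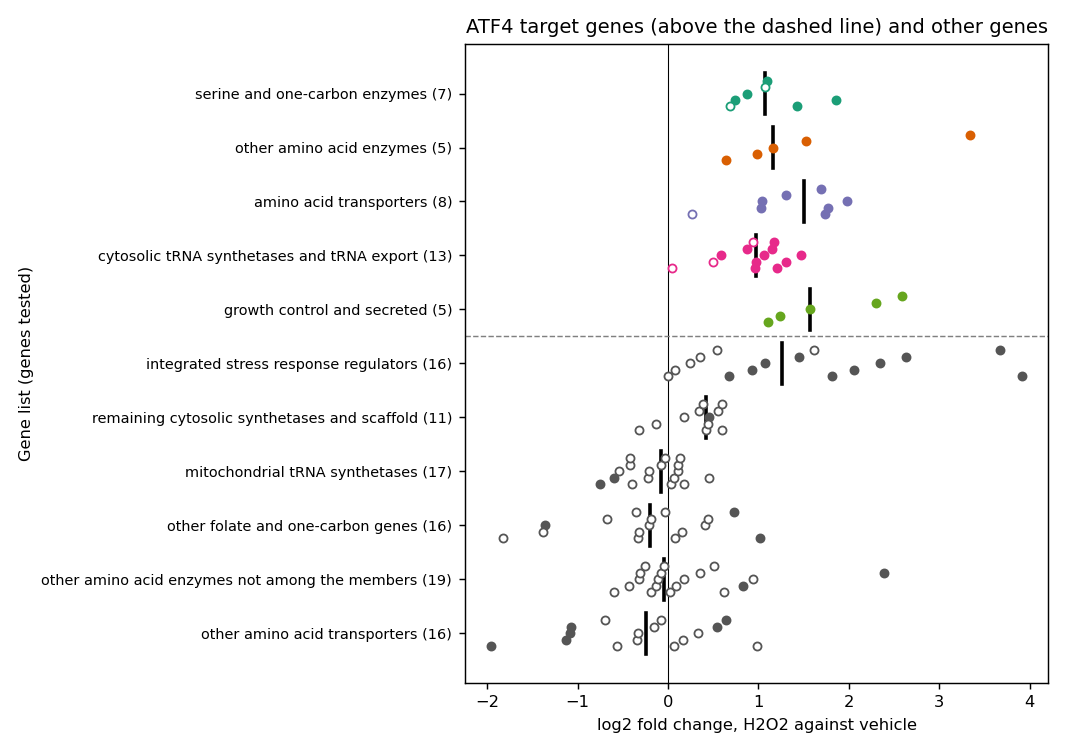
Log2 fold change with H2O2 against vehicle for each gene of the 5 role groups of ATF4 targets (above the dashed line) and of the 6 lists of other genes (below it). Filled points passed at an adjusted p under 0.05 and black bars are medians, which lie at 0.97 or above for the role groups and at 1.26 for the stress response regulators, against -0.24 to 0.42 for the other lists.

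The second comparison asked whether the same genes responded to H2O2 in cells given gRc, and it shares no library with the first. The 2 are still not fully independent, because vehicle and gRc libraries of the same replicate number deviated together (correlations of 0.46, 0.271 and 0.86). In gRc+H2O2 against gRc, 30 of the 38 rose and none fell, where 7.57% of all genes rose and 8.15% fell, with a median log2 fold change of 1.05 and 19 rises of at least 2-fold. In 33 of the 38 every gRc+H2O2 library lay above every gRc library, compared with 19.2% of all genes. Cth rose 8.68-fold (log2 3.12, SE 0.22, adjusted p = 1.97e-05), Sesn2 6.76-fold (2.76, SE 0.25), Vldlr 4.37-fold (2.13, SE 0.17), Slc3a2 3.69-fold (1.88, SE 0.14) and Xpot 2.64-fold (1.40, SE 0.13). By role, 5 of 7 serine and one-carbon enzymes, 4 of 5 other enzymes, 7 of 8 transporters, 9 of 13 synthetases and exportin, and 5 of 5 growth control and secreted genes rose. The count of synthetases was the least steady, and fell from 9 to between 3 and 5 when gRc replicate 1 or 3 or any 1 of the gRc+H2O2 replicates was left out. In the first comparison the count of other enzymes fell from 5 to 3 without H2O2 replicate 2.

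All 38 genes had the same sign in both comparisons, as did 12367 of all 14838. All 30 that rose with gRc also rose without it, and Pycr1 and Nars passed without it but not with it (log2 0.33, adjusted p = 0.228, and 0.94, adjusted p = 0.0549, with gRc). For Nars this turned with the setting: when only the groups compared were fitted it did not pass without gRc (adjusted p = 0.128) and passed with it (adjusted p = 0.0475). Without the 3 libraries that stood apart, the log2 value in gRc-treated cells was 0.70 for Nars and 0.77 for Slc38a2. Across the 38 genes the 2 sets of log2 fold changes correlated at r = 0.941, against 0.781 across all genes tested. Genes are not independent replicates, the points of 1 axis share libraries, and the vehicle and gRc libraries deviated together. The value is given as a description. Cth, Sesn2 and Vldlr had the 3 largest rises without gRc and, together with Slc7a3, the 4 largest with it.

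**Figure D5:**
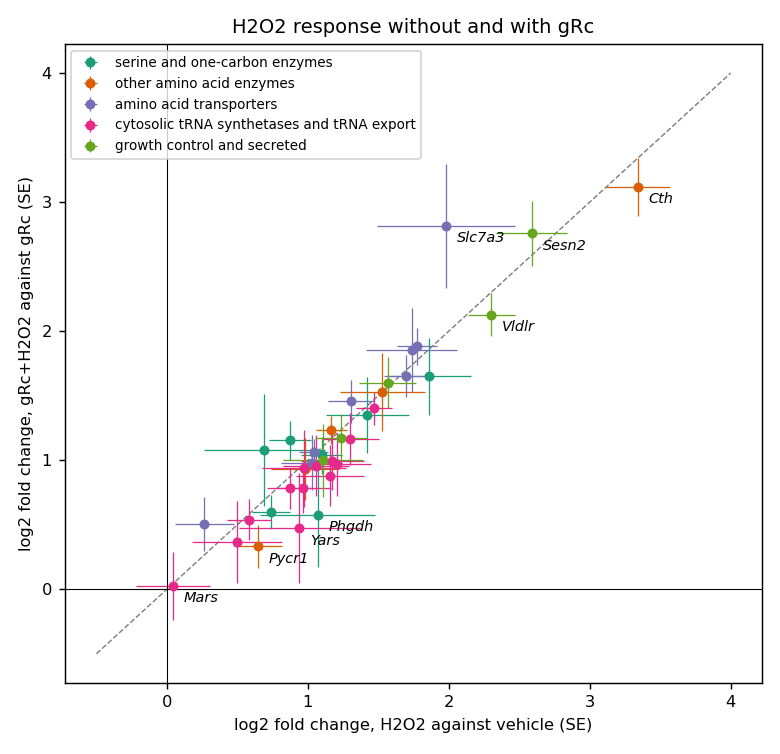
Log2 fold change with H2O2 in cells without gRc (horizontal) against that in gRc-treated cells (vertical) for the 38 genes, with SE in both directions and colours by role. The dashed line marks equal values; the points follow it (r = 0.941), with Slc7a3 (1.98 and 2.81) the farthest above it and Phgdh (1.07 and 0.58) and Yars (0.94 and 0.47) below it.

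The third comparison, gRc+H2O2 against H2O2, is the one that bears on the effect of gRc under stress. None of the 38 genes passed, and none had an unadjusted p under 0.05 in edgeR; DESeq2 called none of them either. Over all genes edgeR called 0.0%, with 122 of 14838 at an unadjusted p under 0.05, and DESeq2 called 1 gene higher and 1 lower. The median log2 difference of the 38 was -0.06 and the values ran from -0.53 (Yars) to 0.61 (Slc7a3), with the smallest p at Ddit4 (log2 -0.46, SE 0.28, edgeR adjusted p = 0.922). For 32 of the 38 the 95% interval lay within a 2-fold change in either direction. The intervals of Phgdh, Mthfd2, Slc7a3, Lars, Yars and Ddit4 reached beyond it on 1 side. Aldh18a1 had an interval of -0.24 to 0.23 around -0.005, Slc3a2 one of -0.33 to 0.29 around -0.02, Sesn2 one of -0.44 to 0.61 around 0.09 and Cth one of -0.30 to 0.59 around 0.14.

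The 13 synthetase and exportin genes were all on the lower side with gRc+H2O2, with differences of -0.05 to -0.53 and a median of -0.17, while 6 of the 8 transporters were on the higher side, with a median of 0.10. None of these values passed, and over all genes tested 7418 were above 0 and 7420 below. As the synthetases shared a pattern among the untreated libraries, their signs are not 13 separate observations. In the libraries compared here, their summed level followed the order of the first principal component. It was 7007, 5750 and 6528 CPM in H2O2, at scores of -44.9, -8.3 and -40.5. In gRc+H2O2 it was 5627, 5301 and 6043 CPM, at scores of 5.2, 22.8 and -19.1. The part of that component in these signs was not tested. Every gRc+H2O2 library lay above every H2O2 library in 4 genes (Gpt2, Slc7a5, Slc6a9 and Slc7a3) and below in 3 (Psat1, Xpot and Lars), compared with 7.69% and 7.62% of all genes.

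The fourth comparison, gRc against vehicle, tested gRc in unstressed cells. None of the 38 passed in edgeR or DESeq2, and none had an unadjusted p under 0.05. Over all genes edgeR called 0.0%, with 74 of 14838 at an unadjusted p under 0.05, and DESeq2 called none. The median log2 difference was -0.004, and the values ran from -0.36 (Ddit4) to 0.37 (Cth, SE 0.22), the gene with the smallest p. The 95% interval lay within 2-fold for 37 of the 38, the exception being Slc7a3. In no gene did the 3 libraries of 1 group all lie on the same side of the other 3, compared with 0.869% of all genes above and 0.741% below. Atf4 differed by 0.15 (95% interval -0.36 to 0.67).

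The difference between the H2O2 responses with and without gRc was tested as an interaction. None of the 38 passed in edgeR or DESeq2, none had an unadjusted p under 0.05, and over all genes edgeR called 0.0%, with 87 of 14838 at an unadjusted p under 0.05, while DESeq2 called 1 gene lower and none higher. The median log2 value was -0.06, and the values ran from -0.49 (Phgdh, 95% interval -1.75 to 0.77) to 0.83 (Slc7a3, -0.69 to 2.36), with the smallest p at Shmt2 (0.28, SE 0.21). The interval lay within 2-fold for 30 of the 38. All 13 synthetase and exportin genes had values below 0, from -0.02 to -0.47, none of which passed. Over all genes tested, 7546 were above 0 and 7292 below. The interaction uses the same libraries as the third comparison, so these signs do not add to those given there.

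Exons of some of these genes overlap those of a neighbour. The library kit keeps strand, but whether reads were counted by strand is not stated. Exons of Psph and Cct6a overlap by 452 bases on opposite strands, those of Aldh1l2 and D10Wsu102e by 1056 and those of Slc6a9 and Ccdc24 by 1429. Cct6a and D10Wsu102e did not pass with H2O2 (log2 0.23 and 0.43), while Ccdc24 rose (1.58, SE 0.29). Exons of Mars overlap those of Ddit3 by 68 bases on the opposite strand. Aars shares 1326 bases with Exosc6 on the same strand, and Exosc6 held 1328 counts in vehicle replicate 1 and none in the other libraries. The expected counts of Phgdh, Psph, Aldh1l2, Slc6a9 and Xpot were not whole numbers in at least 11 libraries, as RSEM gives where a read is divided among genes, while those of Mars were whole in every library.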

How the data were processed

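RNA libraries of C2C12 cells were sequenced by the authors as paired reads of 100 bases. The authors trimmed reads with Trim Galore after FastQC, aligned them to GRCm38 with STAR 2.7.3a and deposited RSEM 1.3.3 expected counts and TPM for each gene and library. Whether strand was used in counting is not given in the sources used here.

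The deposited values were made whole by rounding before the test with edgeR 4.0.16 in R 4.3.3: TMM factors, filterByExpr, a quasi-likelihood F test with all 12 libraries in 1 fit, and Benjamini-Hochberg adjustment over 14838 genes at a threshold of 0.05. Standard errors were derived from each gene's F statistic and estimate, and 95% intervals used the degrees of freedom of the fit. Separate cultures are not stated for the 3 replicates, so p-values measure only the spread between these samples, which may be technical. The common biological coefficient of variation was 0.295. The scripts were tested on simulated counts. DESeq2 1.42.0 and limma 3.58.1 on log2(TPM + 0.5) served as alternatives beside other scaling, filters and choices of samples; a GC correction was added after seeing the data. Positions come from the GENCODE annotation of GRCm38, and all 39 genes matched.

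The 39 genes and the lists of other genes were chosen with earlier results of these data known. Values in every library are given for the 4 genes of each role group with the smallest p in H2O2 against vehicle and for Atf4; the remaining genes are given by ranges and counts, and in each list of other genes at most 4 called genes with the smallest p are named. The library values of Mars, Lars and Yars, and genes named because they share exons with a target, were chosen after their values were seen. A few items are not reported here.

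Vehicle and gRc libraries of the same replicate number deviated together from their group means, with correlations over all tested genes of 0.46, 0.271 and 0.86 for replicates 1, 2 and 3, all over 0.1. The correlations were 0.0802, 0.402 and 0.309 between H2O2 and gRc+H2O2, 0.44, 0.294 and -0.283 between vehicle and H2O2, and 0.0206, -0.497 and -0.55 between gRc and gRc+H2O2, so the numbers did not pair those groups.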

Additional observations from a re-analysis of the deposited data

How the results depend on the processing

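None of the ATF4 target genes fell in either H2O2 comparison, and none passed in gRc+H2O2 against H2O2, gRc against vehicle or the interaction, under any setting run. The number that rose with H2O2 against vehicle was 18 when only the groups compared entered the fit, against 32. Other settings gave 27 to 32, among them 32 with DESeq2 and 27 with limma on TPM or with effective lengths. The GC correction added after seeing the data gave 31. The fit without the 3 libraries that stood apart is not counted here, because it left only replicate 2 in the vehicle group. Leaving out 1 library gave 26 to 35, and over these fits 618 to 1553 genes of the whole table rose. Each count belongs to its own fit, and the share of all genes that rose also differs between fits. In gRc+H2O2 against gRc the number was 22 with limma, 24 with effective lengths and 28 to 31 otherwise, and 21 to 32 with 1 library left out. With 1 library left out, 607 to 1559 genes of the whole table rose in that comparison. The median log2 fold change was 1.07 to 1.28 with 1 library left out in the first comparison, the highest without vehicle replicate 1, and 1.04 to 1.11 in the second.

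Mars had no stable direction. Against its log2 value of 0.04 with H2O2, it was -0.077 with effective lengths, -0.043 with limma, and -0.203 to 0.453 with 1 library left out (-0.058 without H2O2 replicate 1, -0.062 without vehicle replicate 2 and -0.203 without vehicle replicate 3). In gRc-treated cells it was -0.075 with effective lengths, -0.113 with limma, -0.117 without the 3 libraries that stood apart, and -0.126 to 0.121 with 1 library left out (-0.126 without gRc replicate 3 and -0.074 without gRc+H2O2 replicate 3). The cause was not tested.

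With the replicate number as a block, 32 of the 38 rose with H2O2 and 31 in gRc-treated cells, where Nars passed (log2 0.98, adjusted p = 0.045), and the block with the GC correction gave 31 and 29. The pairing holds for vehicle and gRc, where the block changed no call. The spread between the 3 libraries of a group limits the results: in gRc+H2O2 against H2O2 the 95% interval still held a 2-fold difference for 6 of the 38 genes.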
